A study of Homo sapiens with 9 samples.

Results

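Metallothioneins and the zinc response were examined in PC3 xenografts by RNA-Seq. The genes were chosen by name: 7 metallothioneins (MT1A, MT1E, MT1F, MT1G, MT1M, MT1X and MT2A), MTF1 and SLC30A1. Of these 9 names, 5 were listed in both count tables, among 16008 genes: MT2A, MT1X, MT1F, SLC30A1 and MTF1. The other 4, MT1A, MT1E, MT1G and MT1M, are not analysed here, so 3 of the 7 metallothioneins carry the results. All 5 passed the filter on low counts in every comparison.

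Metallothioneins are small cysteine-rich proteins that bind zinc and copper and can also take up cadmium. Their genes lie in a cluster on chromosome 16 and are switched on by the zinc-sensing transcription factor MTF1, which binds metal response elements before its target genes. SLC30A1, also called ZnT1, is the zinc exporter of the cell surface and is a known MTF1 target as well. Metallothionein transcripts also respond to glucocorticoids and to oxidative stress, and prostate epithelium is known for its high zinc content.

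PC3 is a human prostate cancer cell line that lacks androgen dependence. Cells were grown subcutaneously in male NSG mice, which lack T, B and natural killer cells but keep macrophages and other host tissue, and which per the series record were 11 weeks old. Per the same record, mice entered treatment at a tumor volume of 90 mm3 and were given PBS as vehicle, or 5 mg/kg of T-DXd (trastuzumab deruxtecan, directed at HER2) or P-DXd (patritumab deruxtecan, directed at HER3), weekly by the retro-orbital route for 5 cycles. In the study's methods, age, tumor volume and number of cycles differ for the experiment with both conjugates. There the record's values belong to a separate experiment with T-DXd alone at a higher dose. Each group held 3 libraries. Titles and treatment fields name opposite conjugates for the 6 treated libraries, so libraries go by their titles (P-DXd-titled, T-DXd-titled), and the comparison of all 6 with PBS does not depend on which field is right. All xenografts came from 1 cell line, the tumors were harvested at the end of the experiment, and nothing stated whether mouse reads were removed.

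Libraries held 54481702 to 125538606 counts, and the shallowest PBS library still exceeded every treated one. Epithelial markers of the labelled PC3 cells summed to between 3004 and 3842 CPM (a count level scaled for library depth, here with edgeR's TMM factors) in PBS and between 5069 and 5692 CPM in treated libraries. All 8 of these markers were listed, and 4 were called higher in treated xenografts, where a call needed both an adjusted p of no more than 0.05 in edgeR's test and a change of 1.5-fold or more. Host-type markers moved too, where 15.2% of all genes tested were called higher and 17.1% lower. Called higher were 10 of 10 skeletal muscle, 5 of 9 fibroblast, 4 of 6 macrophage, 3 of 5 adipocyte and 1 of 6 endothelial genes. In addition, 1 macrophage gene was called lower. Fibroblast genes called higher were 1 of 9 in P-DXd-titled and 4 of 9 in T-DXd-titled xenografts, and COL1A1 (0.15) was not called. Summed fibroblast markers overlapped between PBS (1058 to 2062 CPM) and P-DXd-titled libraries (1226 to 2128 CPM). Of 5 keratinocyte genes tested, 0 were called higher and 2 lower. Of 3 genes tested from the androgen receptor axis, 1 was called higher, and KLK2 and KLK3 were not analysed here. P-DXd-titled replicate 2 stood apart with 4474 CPM of summed skeletal muscle markers, where the other treated libraries had 76.3 to 260 CPM and PBS libraries 2.46 to 47.5 CPM. PBS replicate 1 stood apart with 1008 CPM of summed keratinocyte markers, where the other 8 libraries had 147 to 250 CPM. PBS replicate 1 also had the lowest epithelial sum, 3004 CPM. Its fibroblast markers summed to 2062 CPM, compared with 1141 and 1058 CPM in PBS replicates 2 and 3. P-DXd-titled replicate 2 and PBS replicate 1 are named again where a member's value turns on them.

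The stretches of sequence before the 2 metallothioneins called lower, and before SLC30A1, which was not called, are shown with their metal response element cores. Whether the number of cores goes with the change after treatment was not tested. They are the 250 bases before the start in the RefSeq promoter table for GRCh38.p14, read 5′ to 3′ on the gene's own strand. Capitals mark matches to TGCACNC or TGCGCNC on either strand. MT2A is at chr16:56608334-56608583 (plus strand), MT1X at chr16:56682220-56682469 (plus strand) and SLC30A1 at chr1:211579162-211579411 (minus strand).
MT2A: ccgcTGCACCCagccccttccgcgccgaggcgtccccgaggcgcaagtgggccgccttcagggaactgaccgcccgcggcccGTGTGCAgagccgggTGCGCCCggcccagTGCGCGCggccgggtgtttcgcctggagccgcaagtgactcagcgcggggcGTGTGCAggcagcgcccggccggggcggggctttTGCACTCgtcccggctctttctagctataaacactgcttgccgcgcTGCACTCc
MT1X: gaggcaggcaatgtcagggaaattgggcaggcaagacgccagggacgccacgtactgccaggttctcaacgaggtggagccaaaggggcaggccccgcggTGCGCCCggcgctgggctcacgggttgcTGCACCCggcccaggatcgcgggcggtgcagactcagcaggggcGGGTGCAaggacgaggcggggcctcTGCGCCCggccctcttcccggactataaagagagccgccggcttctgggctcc
SLC30A1: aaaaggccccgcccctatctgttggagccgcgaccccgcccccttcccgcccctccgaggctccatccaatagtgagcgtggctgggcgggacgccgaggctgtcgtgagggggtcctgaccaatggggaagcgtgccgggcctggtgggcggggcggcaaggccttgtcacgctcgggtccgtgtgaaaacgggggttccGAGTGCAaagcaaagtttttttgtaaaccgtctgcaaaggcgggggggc

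The MT2A stretch held 7 matches, 5 of them on the gene's strand, the nearest 2 bases and the farthest 246 bases before the start. The MT1X stretch held 4 and the SLC30A1 stretch 1, while the stretch before MTF1 (chr1:37859593-37859842, minus strand) held 0. No match overlapped another. Among 35116 promoters of this length in the table, 24.8% held at least 1 match, 0.37% at least 4 and 0.0313% as many as MT2A. Promoter entries were found for 4 of the 5 listed members, without MT1F. A match of these letters is a description of the sequence and does not show that MTF1 was bound.

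In vehicle tumors MT2A was by far the most abundant of the 3 metallothioneins. MT2A, MT1X and MT1F made up 95.37% to 97.09%, 1.66% to 2.73% and 1.25% to 1.94% of their summed level. MT2A (ENSG00000125148.6) is listed on chromosome 16 from 56642111 to 56643409. MT1F (ENSG00000198417.5) is listed from 56691606 to 56694610 and MT1X (ENSG00000187193.8) from 56716336 to 56718108. No build is named with these coordinates, and they do not match GRCh38, which the study's methods name for alignment. Per kb of the Ensembl canonical transcript, which allows levels of different genes to be compared, MT2A had 806 ± 181 CPM per kb in PBS (SD, n = 3) and ranked 58 of 14814 genes. SLC30A1 followed at 26.5 ± 7.09, MT1X at 18.9 ± 1.48, MT1F at 12.5 ± 1.12 and MTF1 at 3.80 ± 0.148 CPM per kb. The PBS ranges of SLC30A1 (18.5 to 31.9 CPM per kb) and MT1X (17.3 to 20.1) overlapped, so their order was not larger than the spread, while the other neighbours in this order did not overlap. In treated tumors SLC30A1 was at 27.6 ± 3.53, MT1F at 8.62 ± 0.974 and MT1X at 7.75 ± 2.46 CPM per kb (n = 6), so MT1X no longer stood above MT1F.

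MT2A fell in both treated groups. Its level was 407, 276 and 287 CPM in PBS replicates 1 to 3. P-DXd-titled libraries had 166, 130 and 160 CPM and T-DXd-titled libraries 145, 192 and 176 CPM. All 6 treated libraries lay below all 3 PBS libraries. The share of all genes that separate in this way was not counted. For MT2A the treated groups overlapped each other. The mean was 323 ± 72.7 CPM for PBS, compared with 152 ± 19.4 CPM for P-DXd-titled and 171 ± 24.1 CPM for T-DXd-titled xenografts (SD, n = 3). In edgeR's quasi-likelihood test, the log2 fold change was -1.08 (SE 0.18, adjusted p 0.00597) for P-DXd-titled and -0.92 (SE 0.18, adjusted p 0.00777) for T-DXd-titled xenografts, and -1.0 (SE 0.14, adjusted p 0.000198) for all treated xenografts, which is 2.01-fold lower. Even so, MT2A kept a rank of 155 of 14814 genes per kb over the 6 treated libraries.

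PBS replicate 1 had the highest MT2A level and also the highest summed level of keratinocyte markers. Of 8 keratinocyte names, KRT1, LOR and DSG1 were not analysed here. KRT5 and KRT14, keratins of basal epithelium and 2 of the 5 genes summed, were between 88.0 and 521 and between 57.8 and 431 CPM over PBS libraries. Both were called lower in all treated xenografts, at log2 fold changes of -1.37 (adjusted p 0.0384) and -2.43 (adjusted p 0.00336), with 44.1 to 122 and 18.5 to 49.4 CPM. The other 3, KRT10 (0.34), KRT15 (0.54) and IVL (0.17), were not called. Over PBS libraries they were at 42.6 to 45.2, 7.13 to 30.0 and 1.76 to 4.85 CPM. The high sum in PBS replicate 1 thus came from KRT5 and KRT14. Without PBS replicate 1 MT2A was still called, at a log2 fold change of -0.88 for P-DXd-titled, -0.72 for T-DXd-titled and -0.80 for all treated xenografts. Without P-DXd-titled replicate 2, the library with high muscle markers, it was called at -0.97 for P-DXd-titled and -0.95 for all treated xenografts. The part of host or other cells in the MT2A level was not tested otherwise, and in bulk tumors fewer cells that express a gene and less RNA per cell cannot be told apart.

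MT1X, an isoform of the MT1 group, also fell, from a much lower level. Its level was 6.97, 7.87 and 8.11 CPM in PBS replicates 1 to 3. It was 4.28, 1.67 and 3.45 CPM over P-DXd-titled and 2.3, 3.12 and 3.96 CPM in T-DXd-titled replicates 1 to 3. No treated library reached the PBS range, and P-DXd-titled replicate 2 was the lowest, with 91 counts against 614 to 1009 in PBS. The log2 fold change was -1.27 (SE 0.34, adjusted p 0.0263) for P-DXd-titled, -1.29 (SE 0.23, adjusted p 0.00542) for T-DXd-titled and -1.29 (SE 0.25, adjusted p 0.0015) for all treated xenografts. The P-DXd-titled call rested on single libraries: adjusted p in edgeR was 0.0682 without PBS replicate 2, 0.0513 without PBS replicate 3 and 0.0817 without P-DXd-titled replicate 3, with log2 fold changes of -1.24 to -1.34. Without P-DXd-titled replicate 2 it was called, at -0.97. MT1X counts are uncertain where its transcript matches others. Per the study's methods, reads were paired-end and longer than both window lengths used here. Before trimming, the share of 100-base windows is thus the closer of the 2. Of the 50-base windows of its transcript, 51.0% occur exactly in transcripts of other genes, compared with 11.1% for MT2A and 6.12% for MT1F. These other genes include MT1A, MT1G and MT1M, and also MT2A and MT1F. MT2A had 35 to 77.6 counts for each MT1X count, and how far its reads add to MT1X was not tested. Of 100-base windows the share was 22% for MT1X, all with 1 other transcript, the noncoding gene ENSG00000259827, and 0% for MT2A and MT1F. How reads with several matches were counted is not given in the sources used here.

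MT1F, another MT1 isoform, lay below PBS in every treated library but by less. Its level was 5.22, 4.89 and 5.83 CPM in PBS replicates 1 to 3, 4.18, 3.08 and 4.02 CPM in P-DXd-titled replicates and 3.43, 3.44 and 3.82 CPM in T-DXd-titled replicates. The log2 fold change was -0.48 (SE 0.21, adjusted p 0.106) for P-DXd-titled, -0.57 (SE 0.16, adjusted p 0.0282) for T-DXd-titled and -0.54 (SE 0.14, adjusted p 0.00804) for all treated xenografts. MT1F passed the adjusted p in the last 2 of these but missed the fold minimum. It was 1.49-fold lower in T-DXd-titled and 1.45-fold lower in all treated xenografts. In the latter comparison, 61.1% of all genes tested had an unadjusted p under 0.05 in edgeR. The adjusted p of MT1F in T-DXd-titled xenografts rested on single libraries. It was 0.00621 without PBS replicate 1, where MT1F was called at -0.59. Without PBS replicate 2 or 3 it was 0.0542 and 0.0763, and without T-DXd-titled replicate 1, 2 or 3 it was 0.0997, 0.11 and 0.0736. In all treated xenografts it stayed at 0.0378 or less in each fit without 1 library, and MT1F was called without PBS replicate 2 (-0.59).

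Summed over the 3 genes, the metallothionein level was 419, 289 and 301 CPM in PBS replicates 1 to 3, 174, 134 and 167 CPM in P-DXd-titled and 150, 198 and 184 CPM in T-DXd-titled replicates. The sum follows MT2A, which held at least 95.14% of it in each of the 9 libraries.

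**Figure D1:**
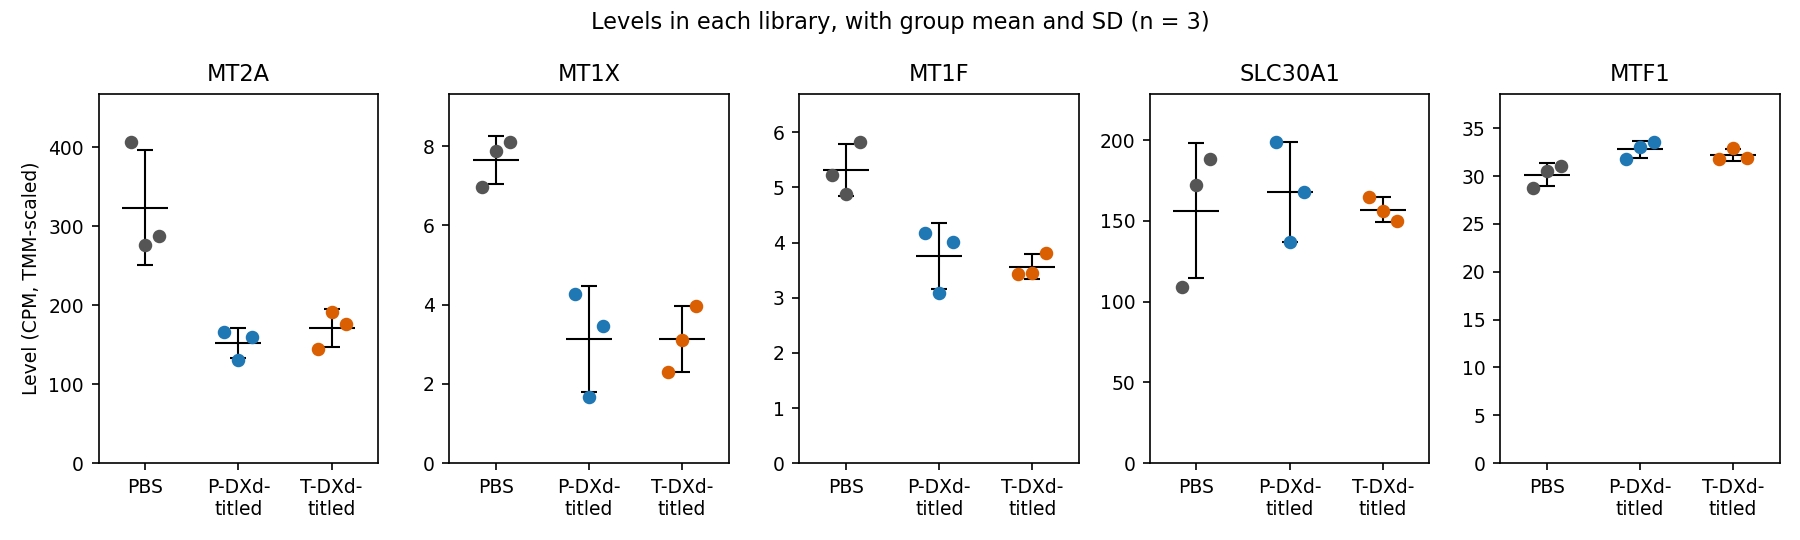
Levels of the 5 listed genes in CPM, on axes from 0, in each of 9 libraries of 3 groups. Points are libraries from replicate 1 at the left to replicate 3 at the right, and bars are the group mean and SD (n = 3). MT2A, MT1X and MT1F lie lower in all 6 treated libraries than in PBS, SLC30A1 overlaps, and MTF1 lies between 28.8 and 33.6 CPM throughout.

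SLC30A1 (ENSG00000170385.9, listed on chromosome 1 from 211744910 to 211752084) did not follow the metallothioneins. Its level was 109, 172 and 188 CPM in PBS replicates 1 to 3. P-DXd-titled replicates had 199, 137 and 168 CPM and T-DXd-titled replicates 165, 156 and 150 CPM. The groups overlapped, with PBS replicate 1 the lowest of the 9 libraries and P-DXd-titled replicate 1 the highest. The log2 fold change was 0.12 for P-DXd-titled (95% interval -0.41 to 0.65, adjusted p 0.709), 0.01 for T-DXd-titled (-0.45 to 0.47, adjusted p 0.975) and 0.06 for all treated xenografts (-0.30 to 0.41, adjusted p 0.784). The direction turned with single libraries: without PBS replicate 1 these values were -0.09, -0.19 and -0.14, and the value for T-DXd-titled xenografts then had an adjusted p of 0.0241 in edgeR but stayed under the 1.5-fold minimum. Without P-DXd-titled replicate 1 the values were -0.03 for P-DXd-titled and -0.01 for all treated xenografts, and without T-DXd-titled replicate 1 it was -0.03 for T-DXd-titled xenografts.

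MTF1 (ENSG00000188786.9, listed on chromosome 1 from 38275239 to 38325292) encodes the zinc-sensing factor itself. It had the smallest spread of the 5 genes, at 28.8, 30.5 and 31.1 CPM in PBS, 31.8, 33.0 and 33.6 CPM in P-DXd-titled and 31.8, 32.9 and 31.9 CPM in T-DXd-titled replicates 1 to 3. All 6 treated libraries lay above the PBS libraries, but by little. The log2 fold change over all treated xenografts was 0.11 (95% interval -0.03 to 0.25, adjusted p 0.167 in edgeR), and its values in the other comparisons with PBS were 0.14 (adjusted p 0.31) and 0.10 (adjusted p 0.374). RNA-Seq does not measure where the MTF1 protein is or whether it binds zinc.

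In every comparison with PBS, 2 of the 5 members were called, MT2A and MT1X, both lower. Across all genes tested, 13.8% were called lower and 11.2% higher in P-DXd-titled xenografts, 15.5% lower and 13.1% higher in T-DXd-titled xenografts, and 17.1% lower and 15.2% higher in all treated xenografts. The comparisons share their PBS libraries, so they are not separate tests of the members. With only 5 members, the count of 2 was not tested against these shares. An unadjusted p under 0.05 in edgeR was reached by 46.9% of all genes in P-DXd-titled, 52.1% in T-DXd-titled and 61.1% in all treated xenografts.

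The treated groups were then compared directly, to see whether conjugates with different antibodies and the same payload differed for these genes. Among all genes, 0.0273% were called in either direction (4 of 14653), and 540 genes (3.69%) had an unadjusted p under 0.05 in edgeR. Of the members 0 of 5 were called, 0 had an unadjusted p under 0.05, and the groups overlapped for each. The share of all genes whose groups overlap was not counted. The log2 difference, P-DXd-titled minus T-DXd-titled, had 95% intervals of -0.43 to 0.09 for MT2A, -0.71 to 0.73 for MT1X, -0.32 to 0.48 for MT1F, -0.16 to 0.35 for SLC30A1 and -0.13 to 0.19 for MTF1. A difference of 1.5-fold between the conjugates thus lay outside the interval for MT2A, MT1F, SLC30A1 and MTF1 and inside it for MT1X.

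**Figure D2:**
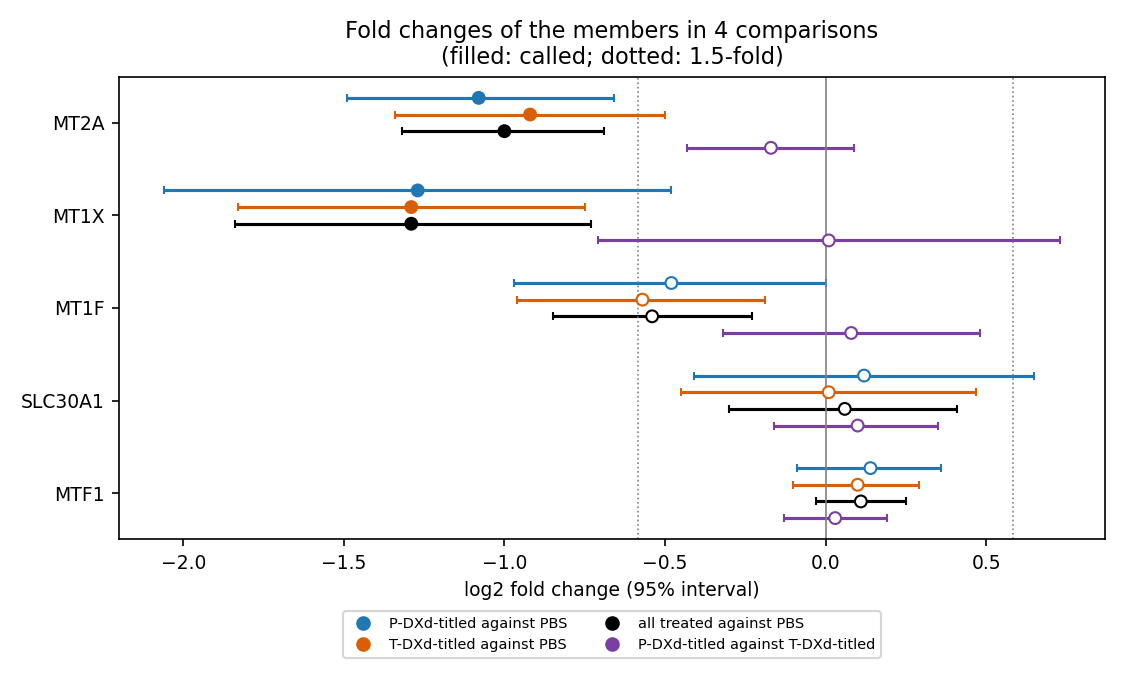
Log2 fold changes of the 5 listed genes (x axis) with 95% intervals in 4 comparisons, shown by color. Filled points were called, open points were not, and dotted lines mark 1.5-fold. MT2A and MT1X are filled in the 3 comparisons with PBS, at -0.92 to -1.29, and no point is filled in the comparison of the treated groups.

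Ratios of counts within a library do not depend on how libraries are scaled. MT2A had 3.73, 1.61 and 1.53 counts for each SLC30A1 count in PBS replicates 1 to 3. It had 0.835, 0.943 and 0.953 in P-DXd-titled and 0.873, 1.23 and 1.17 in T-DXd-titled replicates. The treated libraries lay below the PBS libraries without overlap, and the high value came from PBS replicate 1, which had both the most MT2A and the least SLC30A1. The mean log2 ratio differed by -1.08 between treated and PBS libraries (exact permutation test over 84 divisions, two-sided p 0.0119, the smallest it can give, adjusted p 0.0167 over 7 ratios). The ratio to MTF1 differed by -1.1 with the same p. So did MT1X to SLC30A1, by -1.44, and MT1F to SLC30A1, by -0.63, each lower in 6 of 6 treated libraries. MT2A lay below and MTF1 above PBS in all 6 treated libraries, so the p of their ratio was fixed by those levels. It adds no support. The ratios share genes and are built from the levels given above, so they are not separate tests of the members.

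The metallothioneins also shifted against each other. MT1X had 1.33, 1.61 and 1.39 counts for each MT1F count in PBS. This ratio was 1.02, 0.542 and 0.860 in P-DXd-titled and 0.671, 0.906 and 1.04 in T-DXd-titled replicates. All treated libraries lay below PBS, with a log2 difference of -0.82 (exact permutation test, p 0.0119, adjusted p 0.0167). MT2A to MT1F differed by -0.45 (p 0.0238, adjusted p 0.0278) with overlap of the groups, and MT2A to MT1X by 0.36 (p 0.226, adjusted p 0.226, same exact permutation test). Ratios with MT1X rest on counts that near-identical transcripts can add to. MT2A and MT1F are themselves among the genes that share 50-base windows with MT1X.

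**Figure D3:**
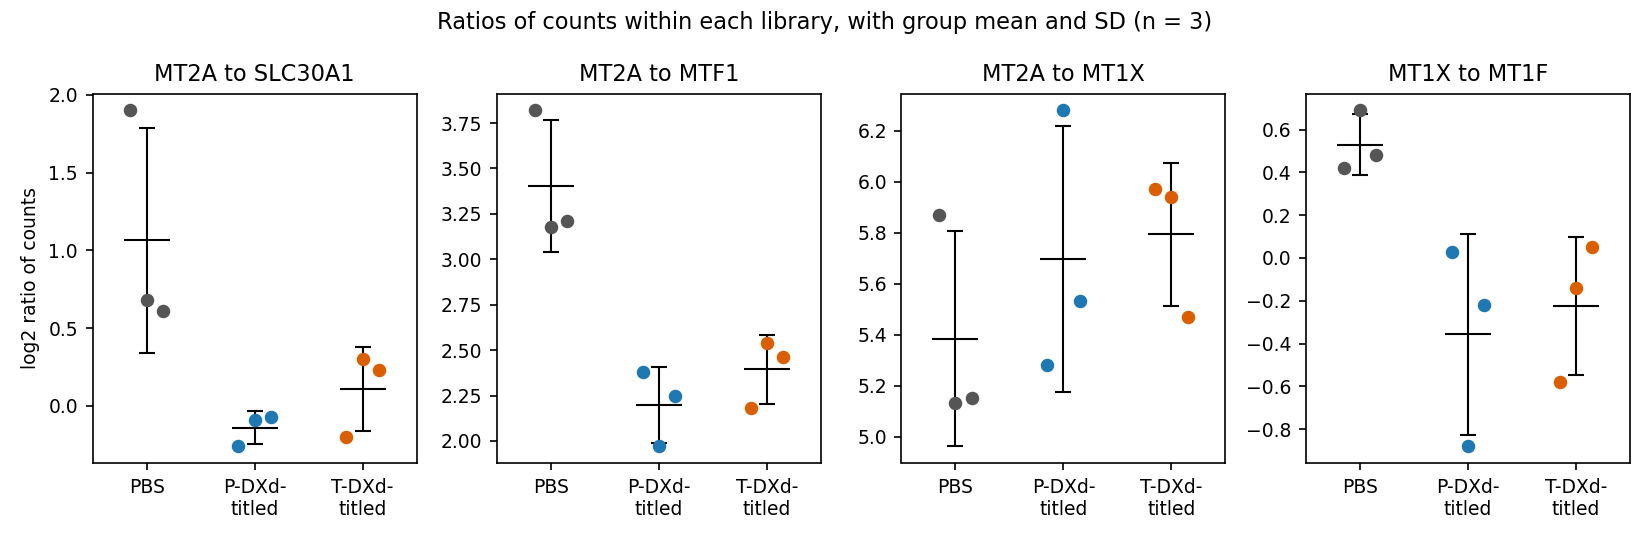
Log2 ratios of counts of 2 genes within each library (y axis, a separate scale in each panel) for 4 of the 7 ratios. Points are libraries, bars the group mean and SD (n = 3). MT2A to SLC30A1, MT2A to MTF1 and MT1X to MT1F are lower in all 6 treated libraries, and MT2A to MT1X overlaps.

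Over the 9 libraries, the genes whose centred log2 levels followed each member most closely were listed as a description. For MT2A, among 12467 genes, these were DSN1, a kinetochore component, ZMYM1 and ADA, adenosine deaminase, with root mean square differences of 0.117, 0.123 and 0.129 on the log2 scale. SLC30A1 was closest to SOS1, a RAS exchange factor, IRF2BP2 and EDEM3 (0.0746 to 0.0771), and MTF1 to SIN3A, a corepressor scaffold, SCAF1 and ATXN7L3B (0.0236 to 0.0357). Members were left out of these searches, so none could be listed as nearest to another. Between members, MTF1 and SLC30A1 differed least (0.225), followed by MT1F and MT2A (0.301). All these points share libraries and depth.

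Other genes of zinc transport were counted next. Of all genes tested in all treated xenografts, 15.2% were called higher and 17.1% lower. Of 6 SLC30 exporters tested besides SLC30A1, 0 were called higher and 1 lower in all treated xenografts, with a median log2 fold change of 0.25, where the median of all genes was -0.01. The 1 called was SLC30A3, a loader of zinc into vesicles, at a log2 fold change of -2.23 (adjusted p 0.0139 in edgeR), but it was under 1 CPM in every library, 0.178 to 0.636 in PBS and 0 to 0.138 in treated libraries.

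Among 12 SLC39 importers tested, 1 was called higher and 2 lower in all treated xenografts, with a median log2 fold change of 0.25. SLC39A14 (ZIP14), which carries zinc, iron and manganese into cells, was at 204 to 221 CPM in PBS and 112 to 137 CPM in treated libraries, a log2 fold change of -0.82 (SE 0.08, adjusted p 1.61e-05 in edgeR). SLC39A4 (ZIP4), the importer known for zinc uptake in the intestine, was at 49.7 to 64.0 and 32.1 to 41.9 CPM (-0.65, SE 0.10, adjusted p 0.00029). Both were called lower in each treated group on its own. SLC39A11 rose, from 50.2 to 82.1 CPM in PBS to 93.3 to 119 CPM in treated libraries (0.62, SE 0.14, adjusted p 0.00345). SLC39A10, a plasma membrane importer that MTF1 is known to repress, was named after its values were seen and had a log2 fold change of -0.34 (adjusted p 0.00596) and did not meet the fold minimum.

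Copper and iron genes were counted in the same way, beside 15.2% of all genes called higher and 17.1% called lower. Of 11 copper genes, which include transporters and chaperones, 2 were called higher and 0 lower (median 0.24): SLC31A2, at 0.74 with levels of 0.897 to 1.38 CPM in PBS and 1.38 to 2.23 CPM after treatment, and the chaperone ATOX1, at 0.61. Of 11 iron genes, 4 were called higher and 2 lower (median 0.07). TFRC, the transferrin receptor that brings iron into cells, fell from 543 to 632 CPM in PBS to 268 to 346 CPM in treated libraries (-1.01, SE 0.09, adjusted p 9.87e-06). SLC40A1 (ferroportin), the iron exporter, rose from 1.09 to 1.85 CPM to 4.02 to 7.45 CPM (2.06, SE 0.25, adjusted p 7.67e-05). The second iron gene called lower was SLC39A14 again, and the other 3 called higher, named after their values were seen, were HMOX1, which breaks down heme (0.81), SLC11A2, an iron importer (0.71), and FTL, the ferritin light chain (0.62). Macrophages also express SLC40A1 and HMOX1. Their markers summed to 7.48 to 9.14 CPM in PBS and 19.4 to 40.1 CPM in treated libraries, with CD68 at 0 in at least 1 library and CD163, MRC1 and TYROBP not analysed here, and their part in these values was not tested.

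**Figure D4:**
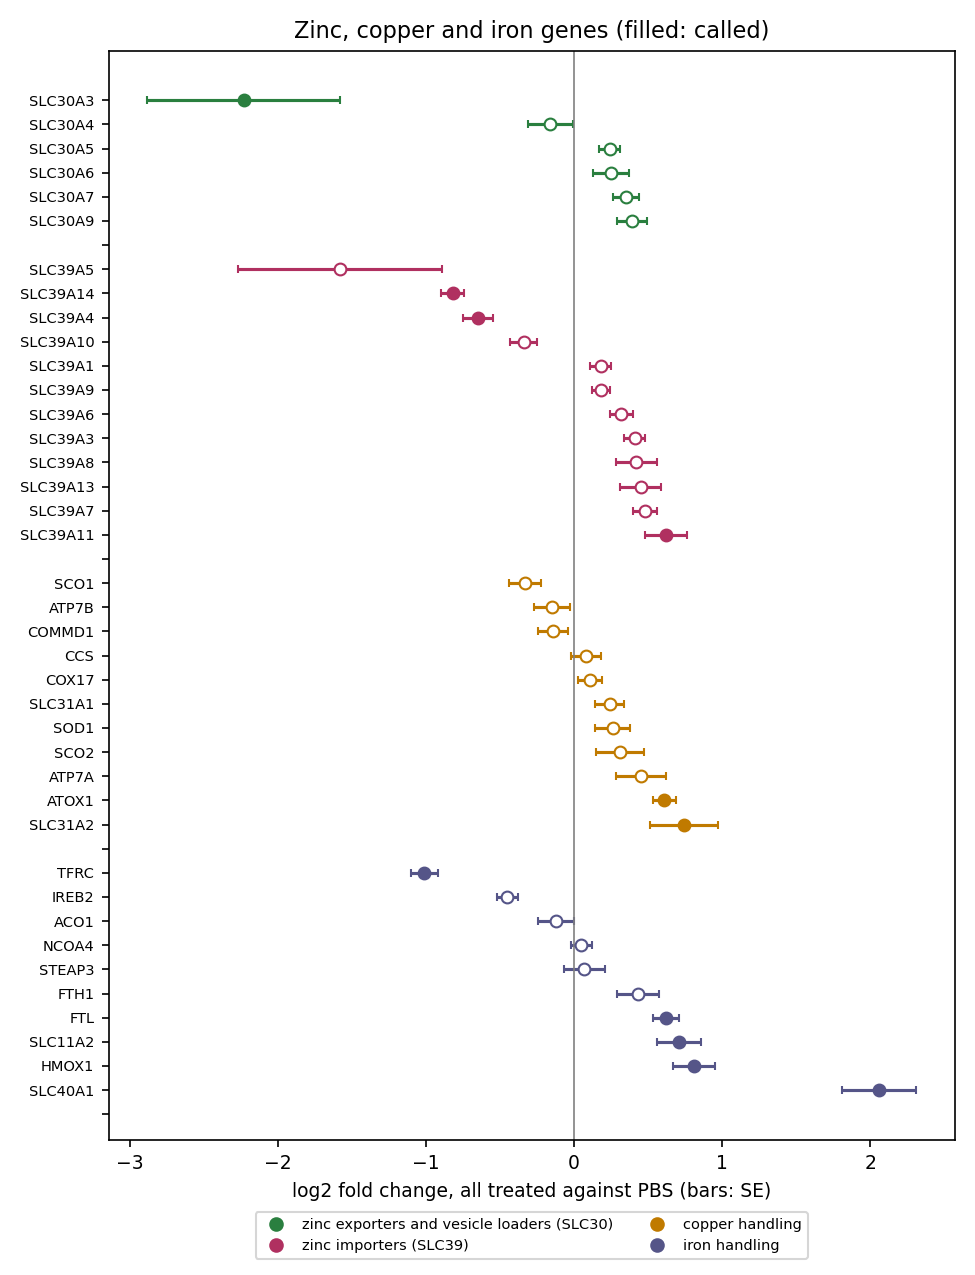
Log2 fold changes of zinc, copper and iron genes in all treated xenografts compared with PBS (x axis, bars are SE), grouped by color, with SLC39A14 drawn once, among the importers. Filled points were called: 1 of 6 exporters, 3 of 12 importers, 2 of 11 copper genes and, counting SLC39A14, 6 of 11 iron genes.

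Genes of 2 other inputs known to raise metallothionein transcripts were described, heat shock and glucocorticoids. Their counts stand beside 15.2% of all genes called higher and 17.1% called lower. Of 15 heat shock genes, 4 were called higher and 1 lower in all treated xenografts (median log2 fold change 0.48). CRYAB, a small chaperone also abundant in muscle, rose from 3.70 to 9.35 CPM to 37.3 to 63.3 CPM (2.89), and the inducible HSP70 genes HSPA6 and HSPA1A rose by 1.25 and 1.04 on the log2 scale. HSPA1B (0.72) and the mitochondrial chaperone HSPD1 (-0.71), both named after their values were seen, were the others called, and HSPA1A and HSPA1B are near-identical copies whose reads may be split. Of 10 glucocorticoid-responsive genes, 5 were called higher and 2 lower (median 0.56). TSC22D3 (GILZ) rose from 13.8 to 18.7 CPM in PBS to 47.3 to 68.6 CPM in treated libraries (1.75, SE 0.15, adjusted p 1.14e-05 in edgeR), and KLF9 rose by 2.21 on the log2 scale. ZBTB16 was called at 2.89 but stayed at 0.459 CPM or less. FKBP5, a chaperone partner of steroid receptors, went the other way, from 30.6 to 40.1 CPM to 9.22 to 12.8 CPM (-1.69), as did ERRFI1 (-1.20), and SGK1 (1.1) and CEBPD (0.59) were the other 2 called higher. These last 4 were named after their values were seen.

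The listed neighbours of the metallothionein genes did not move as a block. Of 8 genes tested around the cluster, 1 was called higher and 1 lower in all treated xenografts, with a median of -0.14. Among all genes these shares were 15.2% and 17.1%. NUP93, a nuclear pore component that starts 122 kb beyond the start of MT2A, fell from 63.7 to 113 CPM in PBS to 46.9 to 53.3 CPM in treated libraries (-0.77, adjusted p 0.00125 in edgeR). On the other side, GNAO1, 417 kb away, was called higher at 2.01 with levels of 0.211 to 0.329 CPM in PBS and 0.429 to 2.29 CPM after treatment. BBS2 and OGFOD1, at 141 and 157 kb the nearest of the listed genes on that side and named for this, had log2 fold changes of -0.11 and -0.17 and were not called.

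**Figure D5:**
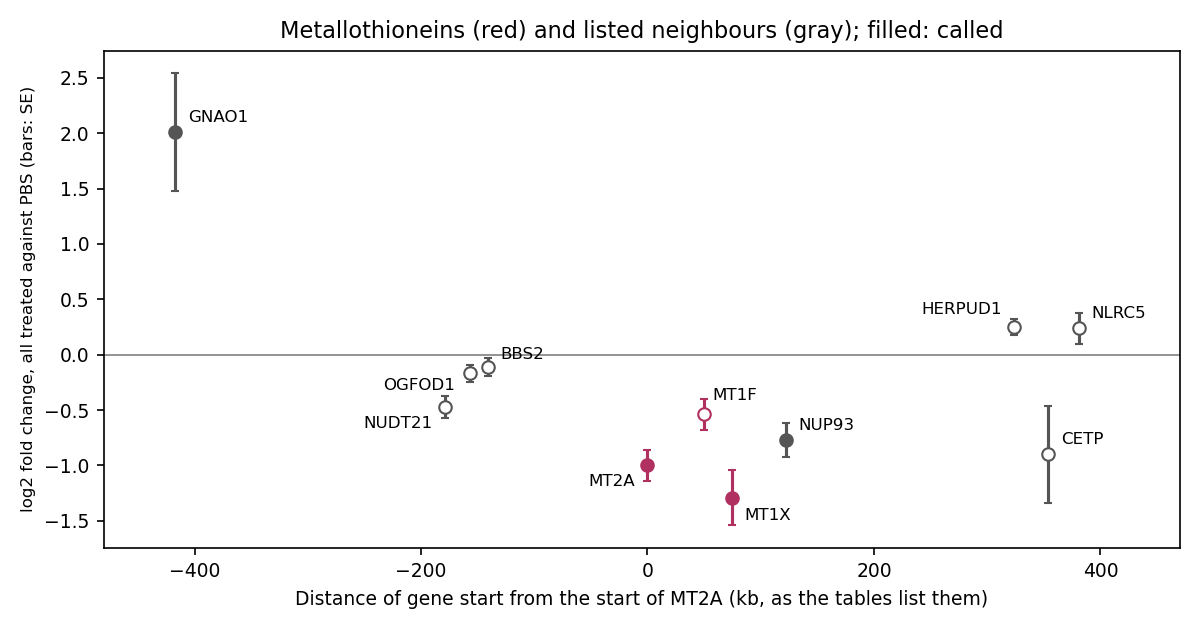
Log2 fold changes in all treated xenografts compared with PBS (y axis, bars are SE) of MT2A, MT1F and MT1X (red) and 8 neighbouring genes (gray), by the distance of each gene's start from that of MT2A in kb (x axis). Filled points were called. The 3 metallothioneins lie at -0.54 to -1.29, and the neighbours range from -0.90 for CETP, not called, to 2.01 for GNAO1.

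Around SLC30A1, 4 of 6 listed neighbours tested were called lower (median -0.72), compared with 17.1% of all genes, while SLC30A1 itself was not called. NEK2, a centrosomal kinase of dividing cells, fell from 28.8 to 39.4 CPM in PBS to 4.81 to 8.39 CPM in treated libraries (-2.40), and DTL, which marks replication factors for degradation in S phase, from 50.3 to 84.4 to 15.8 to 22.3 CPM (-1.79). INTS7 followed at -0.73 and TRAF5, named after its values were seen, at -0.72. Of 6 neighbours of MTF1 tested, 0 were called in edgeR in either direction (median -0.10). Of all these lists of neighbours and of metal, heat shock and glucocorticoid genes, 0 genes were called between the treated groups.

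Genes that hold many metal response element cores before their start were described over all treated xenografts. Over the 11119 tested genes with a promoter entry, 16.8% were called lower and 14.3% higher, with a median log2 fold change of -0.02. The share called lower was 17.4% of 3586 genes with at least 1 match, 17.8% of 1026 with at least 2 and 17.6% of 244 with at least 3, all close to that of all genes. The share called higher in these was 12.5%, 11.7% and 8.20%. Of the 56 genes with at least 4 matches, 25.0% (14 genes) were called lower and 14.3% higher, with a median of -0.10. MT2A and MT1X are themselves among the 56 genes, and no test was made of these shares.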

How the data were processed

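RNA-Seq was analysed for 9 PC3 xenograft libraries, 3 per group by title. Per the study's methods, TruSeq mRNA libraries were sequenced, and the authors used Cutadapt for trimming, STAR for alignment and featureCounts for counting per gene. The deposited values are these raw counts, in 2 tables of 16098 and 16114 genes, with 0 columns unused. Handling of strand, of reads with several matches and of mouse reads is not given in the sources used here. The study's methods name GRCh38 for alignment, but 224 of the gene ends listed lie beyond the GRCh38 chromosome. Coordinates are therefore given as listed.

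Members and lists were chosen with earlier results of these data known. Counts were tested with edgeR 4.0.16 in R 4.3.3 (TMM, filterByExpr, two-sided quasi-likelihood F test, Benjamini-Hochberg over all genes tested). A call required an adjusted p of no more than 0.05 with a change of 1.5-fold or more. CPM were scaled by TMM over 9 libraries. CPM per kb used canonical transcript lengths of GENCODE v44. Within-library ratios were compared by an exact permutation test. Replicates are libraries with separate animal codes. No pair of replicates was a duplicate within sampling noise. Promoter sequences were those of RefSeq.

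Named genes were the members, up to 3 called genes of each metal, stress and neighbour list with the largest change in all treated xenografts, and the 3 genes with at least 100 counts on average (prior count 2) nearest in pattern to MT2A, SLC30A1 and MTF1. Any other gene of the metal, stress and neighbour lists was named after its values were seen or for its position. Alternatives were DESeq2 1.42.0, RLE factors, library totals, other filters, no fold change minimum, offsets for GC content and length (mgcv 1.9.3), 1 fit of all libraries, a block on the first digit of the animal code (added after seeing the data) and leaving out each library. The method was tested on simulated data. A gene from the lists is not reported here.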

Additional observations from a re-analysis of the deposited data

How the results depend on the processing

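MT2A was called lower in the 3 comparisons with PBS under each alternative run (15, 15 and 17), with log2 fold changes of -1.19 to -0.88 for P-DXd-titled, -1.07 to -0.72 for T-DXd-titled and -1.15 to -0.80 for all treated xenografts. MT1X was called in 12 of 15 alternatives for P-DXd-titled (adjusted p in edgeR up to 0.0817), 15 of 15 for T-DXd-titled and 17 of 17 for all treated xenografts. Leaving out 1 library at a time, 1 to 2 members were called in P-DXd-titled xenografts, with 1 left without PBS replicate 2, PBS replicate 3 or P-DXd-titled replicate 3. With fewer samples in these fits, MT1X was the member lost. MT1F was called at -0.72 in T-DXd-titled and -0.67 in all treated xenografts with GC and length offsets, and in both with no fold change minimum. Why the offsets moved it was not tested. SLC30A1 and MTF1 were not called in any alternative of the 4 comparisons. Leaving out 1 library at a time, SLC30A1 changed sign, with ranges of -0.09 to 0.26 for P-DXd-titled, -0.19 to 0.16 for T-DXd-titled, -0.14 to 0.21 for all treated and -0.04 to 0.22 for P-DXd-titled minus T-DXd-titled xenografts. So did 2 metallothioneins between the treated groups, with ranges of -0.28 to 0.31 for MT1X and -0.00 to 0.20 for MT1F. Of 325 values of single members under alternatives, 303 stayed the same. For fold changes this means the same direction and call, and for levels under RLE factors a shift within the group SD. Animal codes in the titles hold a first digit of 1 or 2 that recurs in all groups, and the labels do not say what it marks. With a replicate block on this digit, added after seeing the data, MT2A and MT1X stayed called in the 3 comparisons with PBS (2, 3 and 2 members called), MT1F was also called in T-DXd-titled xenografts (-0.62, adjusted p 0.0485 in edgeR), and SLC30A1 there was -0.03. Counts of 91 to 1009 per library limit the precision of MT1X and MT1F.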
